A study of Mus musculus with 2 samples.

Results

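Kruppel-like factors were followed in GIF-5, a cultured mouse gastric epithelial line, through all array spots whose gene name in the scanner files was Klf2, Klf3, Klf4, Klf5, Klf6, Klf7, Klf9, Klf10, Klf13 or Klf15 and that were not control spots. This gave 18 probes for 10 genes, out of 41174 non-control probes under 27962 gene names. Of these, 15 probes and 9 genes were well above background in at least 1 fraction on both arrays and could be tested, and Klf15 could not.

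The fractions compared were CD133-positive and CD133-negative cells of that line, whose genotype is given as Runx3-/-p53-/- for both fractions. The cells were grown in DMEM with 10% serum, stained with an antibody against CD133, the product of Prom1, and separated by flow sorting, and total RNA of the fractions was hybridised to 2 two-colour Agilent arrays. CD133-positive RNA was labelled with Cy3 and CD133-negative RNA with Cy5 on both arrays, so a dye effect on a gene and the fraction cannot be told apart. The labels call the arrays biological replicates without saying whether they come from separate cultures or sorts. The p-values thus rest on a spread between these arrays that may be technical, and limma borrows part of it from all genes. GIF-5 is 1 line, and all values are of bulk RNA, in which fewer cells of a type and less RNA per cell cannot be told apart.

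Kruppel-like factors are transcription factors that bind GC-rich and CACCC sequences through zinc fingers at their C-terminal end and differ in their N-terminal parts, which recruit activators or repressors. Klf4 and Klf5 are the members best known in gut epithelium. Klf4 is found in differentiating, non-dividing cells and Klf5 in dividing cells of the intestinal crypt. Klf2, Klf4 and Klf5 also take part in keeping mouse embryonic stem cells pluripotent, and Klf4 is one of the classical reprogramming factors.

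Each ratio below is log2 of the CD133-positive over the CD133-negative signal, averaged over the 2 arrays and given with its moderated SE. Adjusted p-values come from limma, two-sided, with the Benjamini-Hochberg adjustment over all 15267 tested genes and a threshold of 0.05. The tested probe with the highest mean intensity stood for a gene, and the other probe of a gene was read from a fit over all 23173 tested probes. The sorted marker Prom1 had ratios of 3.83 and 3.73 on the arrays. Its probes were not well above background in the CD133-negative fraction, and both were at least 8.09-fold higher in the CD133-positive fraction (limma adjusted p = 0.0097 for the brighter one). The direction is that of the labels. Prom1 entered the test only through its CD133-positive signal, so the filter favoured a higher ratio and the p-value is not separate support. With no filter on dim probes it still passed (limma adjusted p = 0.043). The deleted genes Runx3 and Trp53 were at 0.05 ± 0.14 and -0.05 ± 0.14, and on both arrays each fraction gave a signal well above background at both Trp53 probes and at 1 of 2 Runx3 probes. That Runx3 probe was dim, at 61.1 and 62.9 raw units in Cy3, against 86.5 and 90.8 in Cy5. The other Runx3 probe, not well above background, read 49.1 and 50.7 in Cy3, against 57.4 and 57.7 in Cy5. The brighter Trp53 probe read 351 and 318 raw units in Cy3, from CD133-positive cells, against 870 and 803 in Cy5, from CD133-negative cells. Cy3 was the dimmer channel over all tested probes, and the normalised ratio of this probe is the -0.05 given above. Whether these probes lie in the deleted parts is not given in the sources used here, so they do not check the genotype. No spot was saturated. The ratios of all tested genes had a median of -0.02 on array 1 and -0.04 on array 2 and an SD of 0.60 and 0.76.

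In the gene fit none of the 9 tested Kruppel-like factors passed, while 1.38% of all tested genes passed as higher and 0.262% as lower. At an unadjusted p under 0.05 there were 3 members, Klf4 higher and Klf6 and Klf7 lower, while 27.9% of all genes were under that value. No member passed when limma modelled the prior variance as a function of intensity (3 at an unadjusted p under 0.05), where 3.24% of all genes passed as higher and 2.14% as lower. With that model 4340 of all 15267 genes were at an unadjusted p under 0.05. No member passed without moderation (1 at an unadjusted p under 0.05). In that fit 0 of all 15267 genes passed and 1507 were at an unadjusted p under 0.05, so the lack of a call there does not describe the members. The count was not 0 in 3 other gene-level settings. Klf2 passed as higher with the dimmest probe of each gene, Klf2, Klf6 and Klf7 passed as lower with median centring over the tested genes, where 4013 of all genes passed, and all 9 passed as lower with median centring over all probes, where 10107 did. The median of the 9 genes was -0.32, with -0.15 on array 1 and -0.46 on array 2, beside -0.03 for all tested genes. Of the 9, 8 were below 0 on both arrays and 1, Klf4, was above 0 on both. For comparison, 39.7% of all tested genes were below 0 on both arrays and 32.6% above 0 on both. Relative to the median of all genes, 8 of 9 were lower in each scaling alternative except the deposited processed signals, where it was 7, and 6 of 9 were lower when the dimmest probe or the mean of the probes stood for a gene.

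The 2 Klf2 probes gave different answers, and 1 of them was the only member probe to pass in the fit over all probes. Klf2, named after its expression in lung, is best known for quiescence of endothelial cells and for the trafficking of T cells. Probe A_51_P144264 had normalised log2 intensities of 10.69 and 10.31 in CD133-positive cells on arrays 1 and 2, against 8.79 and 8.34 in CD133-negative cells. The fractions did not overlap, which was also so for Klf4 and the brighter or only tested probes of Klf3, Klf5, Klf6, Klf7 and Klf10. The share of all probes without overlap was not computed, so a lack of overlap does not set a member apart. Its ratio was 1.90 on array 1 and 1.97 on array 2, so 1.94 ± 0.13 in the mean, a 3.84-fold higher signal in CD133-positive cells (limma adjusted p = 0.023 over all tested probes, of which 1.15% passed as higher and 0.203% as lower). The 95% interval of this ratio ran from 1.57 to 2.30.

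Probe A_52_P442031, the brighter one, had normalised log2 intensities of 15.14 and 15.32 in CD133-positive cells, against 15.30 and 15.41 in CD133-negative cells. These values overlapped. Its ratio was -0.16 on array 1 and -0.08 on array 2, with a mean of -0.12 ± 0.14 (limma adjusted p = 0.64 over all tested genes) and a 95% interval from -0.51 to 0.27. Since the brighter probe stood for the gene, Klf2 did not pass in the gene fit, and with the dimmest probe of each gene it did (limma adjusted p = 0.029).

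The difference was already present in the unnormalised spot brightness. The dimmer Klf2 probe read 1075 and 779.5 intensity units in Cy3, from CD133-positive cells, against 742 and 472 in Cy5, from CD133-negative cells. The brighter probe read 22303 and 20494 units in Cy3, against 76313 and 75992 in Cy5. Over all tested probes Cy3 was the dimmer channel, with median raw signals of 265 and 251 for CD133-positive cells, against 663 and 604 for CD133-negative cells. The dimmer Klf2 probe was thus brighter in the channel that was dimmer on the whole array, and the brighter probe was not.

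Both probes were designed to the same Klf2 transcript, NM_008452. The scanner files place the brighter one on chromosome 8 at 70842757 to 70842816 and the dimmer one at 70844133 to 70844192, a distance of 1376 bases, with no genome build named. The gap of 2.06 between their mean ratios was matched or exceeded in 20 of 5642 genes with at least 2 tested probes, Klf2 included, or 0.354%, and the median gap over these genes was 0.19. Of the other 5 members with 2 tested probes, Klf13 had a gap of 0.38 and Klf6 one of 0.18, and Klf3, Klf7 and Klf9 had gaps from 0.05 to 0.10. Which of the Klf2 probes reads the Klf2 transcript more faithfully was not tested.

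**Figure D1:**
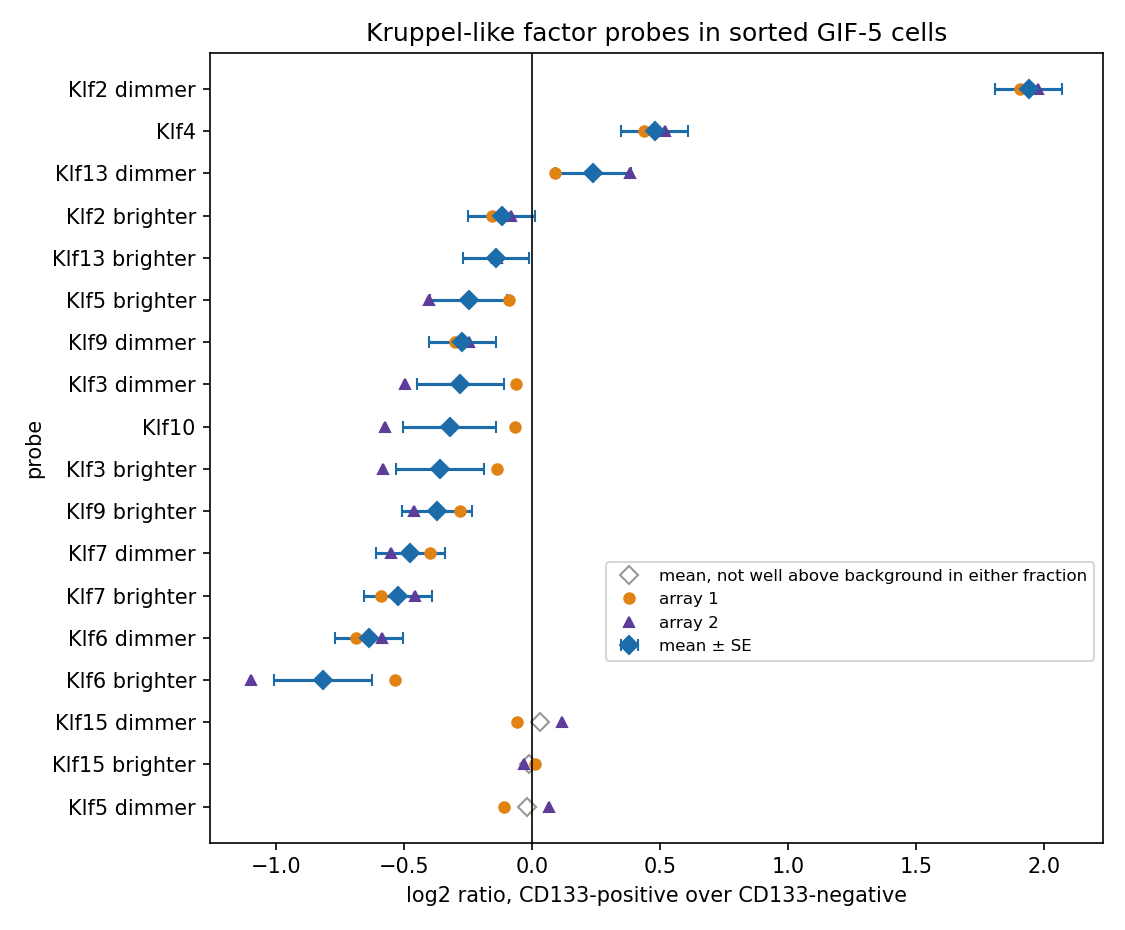
Log2 ratio of CD133-positive over CD133-negative cells for each of the 18 Kruppel-like factor probes, on array 1 (circles) and array 2 (triangles), with the mean (diamonds) and its moderated SE for tested probes. The dimmer Klf2 probe lies at 1.94 and Klf4 at 0.48, the dimmer Klf13 probe at 0.24, the other tested probes lie between -0.12 and -0.82, and open diamonds mark probes not well above background in either fraction.

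Klf4, the gut-enriched member, had its single probe at normalised log2 intensities of 14.63 and 14.46 in CD133-positive cells, against 14.19 and 13.94 in CD133-negative cells. The fractions did not overlap, as was also so for Klf3, Klf5 and Klf10, and the share of all probes without overlap was not computed. Both arrays gave nearly the same ratio, 0.44 and 0.52. The mean of 0.48 ± 0.14, a 1.39-fold higher signal in CD133-positive cells, missed the threshold (limma adjusted p = 0.13, 95% interval 0.09 to 0.87). Relative to the median of all genes Klf4 stayed above 0 in all alternatives, although with median centring over all probes, which put the median of all genes at -0.74, its own ratio was -0.68 and only 0.07 above that median.

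Klf5, the proliferation-linked gut member, had 1 probe well above background, with normalised log2 intensities of 10.63 and 10.69 in CD133-positive cells, against 10.72 and 11.09 in CD133-negative cells. Its ratio was -0.09 on array 1 and -0.40 on array 2, with a mean of -0.25 ± 0.16 (limma adjusted p = 0.38, 95% interval -0.69 to 0.19). A second Klf5 probe, designed to another cDNA, was in neither fraction well above background. Klf4 and Klf5 therefore lay on opposite sides of 0 on both arrays, and neither passed.

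Klf6, a widely expressed early-response factor and candidate tumour suppressor, had the lowest ratio of the members. Its brighter probe had normalised log2 intensities of 13.48 and 12.96 in CD133-positive cells, against 14.02 and 14.06 in CD133-negative cells. The ratio was -0.54 on array 1 and -1.10 on array 2, with a mean of -0.82 ± 0.20 (limma adjusted p = 0.11, 95% interval -1.37 to -0.26). The SD of 0.40 between arrays was the largest of the member probes.

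The dimmer Klf6 probe had normalised log2 intensities of 11.29 and 11.11 in CD133-positive cells, against 11.98 and 11.69 in CD133-negative cells. Its ratios of -0.69 and -0.59 were closer together, with a mean of -0.64 ± 0.13 (limma adjusted p = 0.098 over all tested probes). Both Klf6 probes were thus lower in CD133-positive cells on both arrays, 1.76-fold and 1.56-fold in the mean, and neither passed.

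Klf7, the closest relative of Klf6 and best known from the nervous system, was lower in CD133-positive cells with both probes. The brighter probe had normalised log2 intensities of 10.02 and 10.03 in CD133-positive cells, against 10.61 and 10.48 in CD133-negative cells, a mean ratio of -0.53 ± 0.14 (limma adjusted p = 0.12). The dimmer one had a mean ratio of -0.48 ± 0.13, with -0.40 and -0.55 on the 2 arrays (limma adjusted p = 0.14 over all tested probes). The 2 probes differed by less than their standard errors.

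**Figure D2:**
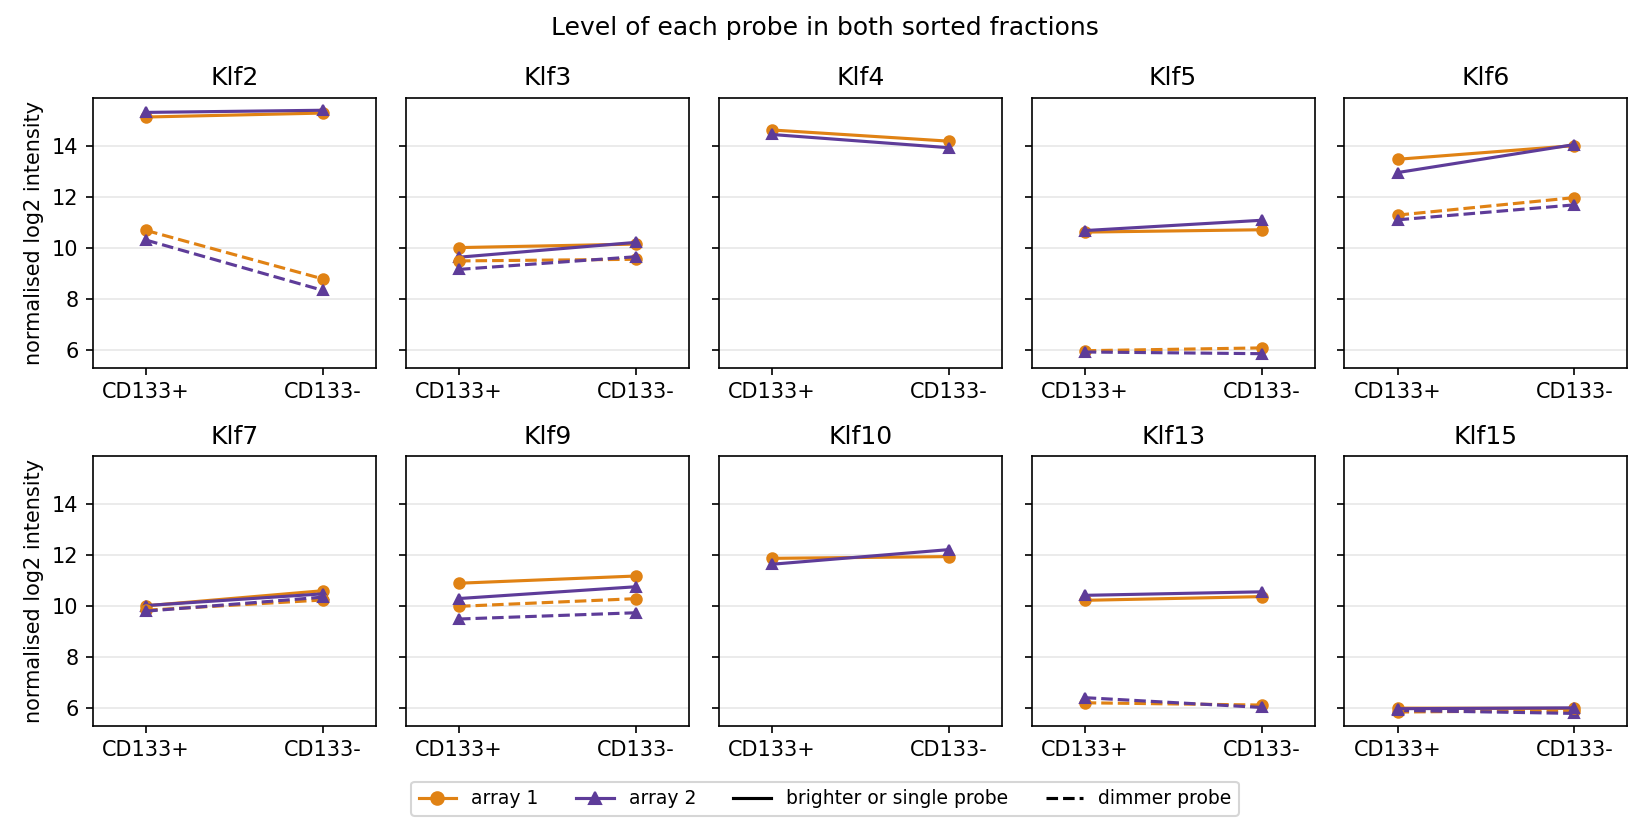
Normalised log2 intensity of each Kruppel-like factor probe in CD133-positive cells (left) and CD133-negative cells (right) of array 1 (orange) and array 2 (purple), with solid lines for the brighter or single probe of a gene and dashed lines for the dimmer one. Lines slope down to the right for the dimmer Klf2 probe and for Klf4 and up for Klf6 and Klf7, while Klf15 stays near 6, close to background; levels of different probes are not comparable as amounts of RNA.

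The proximal promoters of Klf2, Klf4 and Klf6 are shown because these genes carried the highest and the lowest ratios. They are the 250 bases before the gene start on the gene's own strand, from RefSeq (GRCm38.p6), in which 8 of the 10 members had an entry. Capitals mark CACCC boxes (CACCC or GGGTG), GC boxes (GGGCGG or CCGCCC), both of which are sequences that Kruppel-like factors and their Sp relatives can bind, and matches to the MEF2 consensus, the site of the MEF2 factors through which the kinase Mapk7 induces Klf2 and Klf4 in endothelial cells. A MEF2 match does not overlap the other motifs here.
Klf2, chr8:72318812-72319061, plus strand: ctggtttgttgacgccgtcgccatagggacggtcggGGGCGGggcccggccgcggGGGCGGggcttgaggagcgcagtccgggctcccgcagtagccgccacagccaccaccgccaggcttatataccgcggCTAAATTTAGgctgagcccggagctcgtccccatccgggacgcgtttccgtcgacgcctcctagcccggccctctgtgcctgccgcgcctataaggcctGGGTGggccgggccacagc
Klf4, chr4:55532476-55532725, minus strand: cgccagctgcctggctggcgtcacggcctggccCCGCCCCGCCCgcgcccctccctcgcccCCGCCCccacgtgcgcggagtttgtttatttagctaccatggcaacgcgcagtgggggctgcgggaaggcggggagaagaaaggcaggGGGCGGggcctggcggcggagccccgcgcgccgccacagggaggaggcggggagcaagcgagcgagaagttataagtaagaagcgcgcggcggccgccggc
Klf6, chr13:5861239-5861488, plus strand: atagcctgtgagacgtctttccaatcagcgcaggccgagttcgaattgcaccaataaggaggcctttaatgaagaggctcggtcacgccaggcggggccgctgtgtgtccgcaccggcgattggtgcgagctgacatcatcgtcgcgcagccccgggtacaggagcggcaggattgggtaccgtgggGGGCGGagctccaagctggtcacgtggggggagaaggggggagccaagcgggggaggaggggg
The Klf2 window held 2 GC boxes, 1 CACCC box and 1 match to the MEF2 consensus, CTAAATTTAG, from base -118 to base -109 before the gene start. The Klf4 window held 4 GC boxes, counted with overlaps, and the Klf6 window 1, and neither held a CACCC box or a MEF2 match. Over the 8 members, 6 windows held a CACCC box, 7 a GC box and 1, that of Klf2, a MEF2 match. Among 32851 promoter windows of the same length, 52.0% held a CACCC box, 32.7% a GC box and 2.92% a MEF2 match. A match describes the letters and is not evidence of binding.

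Klf3, which represses through the corepressor CtBP, had its brighter probe at normalised log2 intensities of 10.02 and 9.64 in CD133-positive cells, against 10.16 and 10.22 in CD133-negative cells. The mean ratio was -0.36 ± 0.18 (limma adjusted p = 0.28), and the other Klf3 probe gave -0.28 ± 0.17. Both Klf3 probes were near 0 on array 1, at -0.14 and -0.06, and lower on array 2, at -0.58 and -0.50.

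Klf10, a factor induced early by TGF-beta, showed the same kind of spread between arrays. Its normalised log2 intensities were 11.88 and 11.64 in CD133-positive cells, against 11.95 and 12.22 in CD133-negative cells. The ratio was -0.07 on array 1 and -0.57 on array 2, with a mean of -0.32 ± 0.19 (limma adjusted p = 0.35, 95% interval -0.85 to 0.20). For Klf3, Klf5 and Klf10 the lower mean came mainly from array 2.

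Klf9 and Klf13, related factors that can repress through the corepressor Sin3a, differed less between arrays. The brighter Klf9 probe had normalised log2 intensities of 10.90 and 10.30 in CD133-positive cells, against 11.18 and 10.76 in CD133-negative cells, which overlapped between arrays although the ratio was below 0 on each. Its mean ratio was -0.37 ± 0.14 (limma adjusted p = 0.20, 95% interval -0.78 to 0.03), and the dimmer Klf9 probe gave -0.27 ± 0.13. The brighter Klf13 probe had a mean ratio of -0.14 ± 0.14, with -0.15 and -0.14 on the 2 arrays (limma adjusted p = 0.57).

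The dimmer Klf13 probe had the opposite sign, 0.24 ± 0.15 (limma adjusted p = 0.39 over all tested probes). Its ratio was 0.09 on array 1 and 0.38 on array 2, with a 95% interval from -0.18 to 0.65. On both arrays it was well above background in the CD133-positive fraction and not in the CD133-negative one. It thus entered the test only through its CD133-positive signal, and the filter favoured a higher ratio. Its raw signals were low, 59.0 and 70.8 units in Cy3, against 73.8 and 73.4 in Cy5. The brighter Klf13 probe read 766 and 807 units in Cy3, against 2243 and 2315 in Cy5. The 2 probes did not agree in sign, and the dimmer one cannot decide the sign for Klf13. Klf15, a regulator of amino acid breakdown and glucose handling in muscle and liver, had 2 probes, and neither probe reached well above background in any channel, with raw signals from 50.1 to 53.8 units in Cy3, against 56.4 to 62.0 in Cy5. Klf15 transcript was therefore not detectable here in either fraction.

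**Figure D3:**
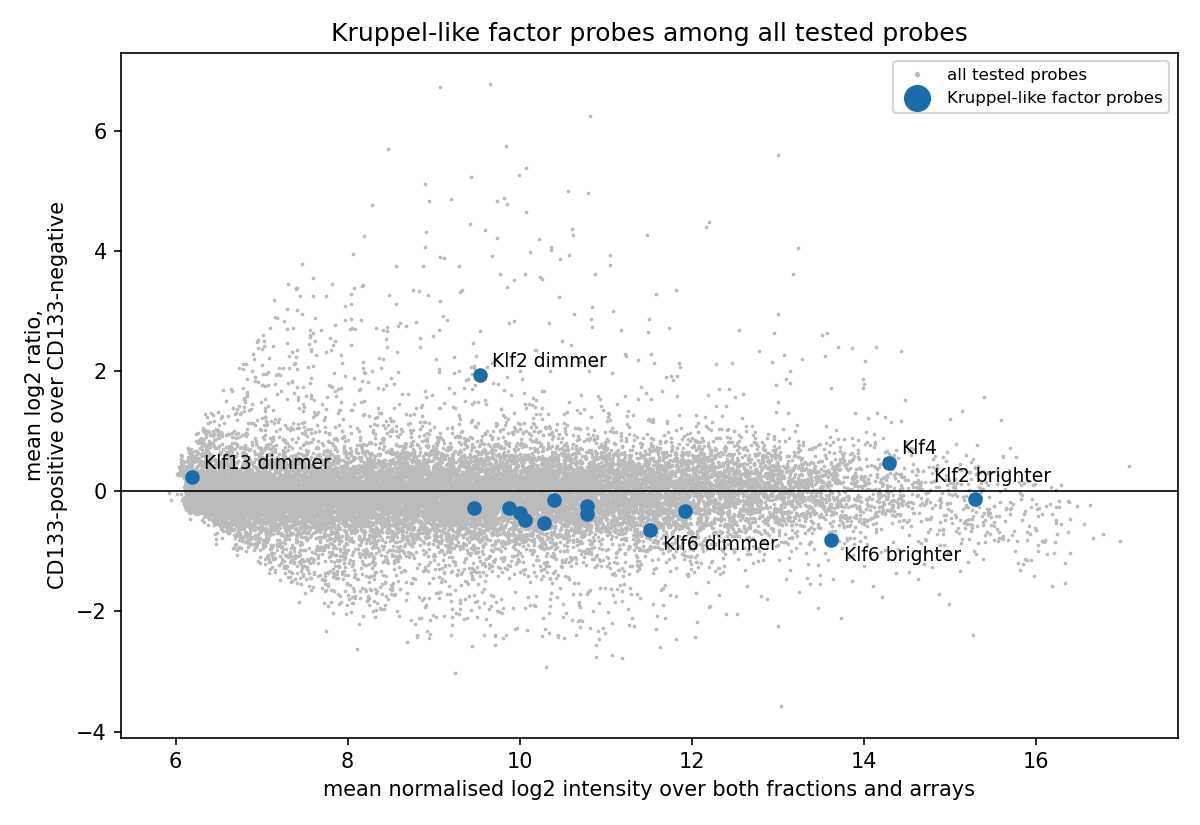
Mean log2 ratio (CD133-positive over CD133-negative) against mean normalised log2 intensity for all 23173 tested probes (grey) and the 15 tested Kruppel-like factor probes (blue). The dimmer Klf2 probe, at 1.94, is the member probe farthest from 0, and the others, the brighter Klf2 probe included, lie within the main body of probes between -0.82 and 0.48.

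The other Klf and Sp genes of the array, members of the same zinc-finger family, were measured too. Of 16 listed, 11 were tested and none passed, with a median of 0.03. Unadjusted p-values were under 0.05 for 2 genes with higher signal, Klf8 and Klf11, and 1 with lower signal, Sp8. Klf8, a CtBP-binding repressor whose gene is repressed by Klf3 in mice, was at 0.65 ± 0.14, with 0.62 and 0.69 on the 2 arrays (limma adjusted p = 0.094). Klf11, a close relative of Klf10, was at 0.57 ± 0.20 (limma adjusted p = 0.17), and its other probe was at 0.18 with opposite signs on the arrays. Sp8, a developmental factor, was at -1.05 ± 0.26, with -0.62 and -1.48 on the arrays (limma adjusted p = 0.11), and Sp3, a ubiquitous GC-box binding factor, was at -0.32 ± 0.15. Klf14, Klf17, Sp5 and Sp7 were in neither fraction well above background.

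Genes that act upstream of Kruppel-like factors were mostly measured, and none of 14 tested of 15 listed passed (median -0.13). The route from the kinases Map2k5 and Mapk7 to the MEF2 factors showed small ratios, with Map2k5 at 0.02 ± 0.14, Mapk7 at -0.25 ± 0.14, Mef2a at 0.04 ± 0.14 and Mef2d at 0.20 ± 0.14, although other Mef2d probes were at -0.03 and -0.36. The early-response factor Egr1 was at 1.02 ± 0.14 (limma adjusted p = 0.067). The TGF-beta receptor gene Tgfbr1 was at -1.22 ± 0.15 (limma adjusted p = 0.061), but its other tested probe was at -0.03. The ligand gene Tgfb1 was at -0.82 ± 0.29 and the signal transducer gene Smad3 at -0.59 ± 0.14, with limma adjusted p-values of 0.18 and 0.11, and other Smad3 probes were at -0.61 and -0.04.

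None of the 11 co-regulator genes passed, with a median of -0.03, and the CtBP genes Ctbp1 and Ctbp2 were at 0.21 ± 0.14 and -0.03 ± 0.14. None of the 7 ubiquitin ligase genes passed, with a median of -0.35. Of these, Wwp1, which targets Klf2 and Klf5 for breakdown, was at -0.47 ± 0.14 (limma adjusted p = 0.14) with other probes at -0.07 and -0.05, Fbxo32 at -0.67 ± 0.23, Btrc at -0.41 ± 0.17 and Vhl at 0.65 ± 0.15. Of 10 pluripotency partners 3 were tested, Myc at 0.02 ± 0.27, Nr5a2 at 0.02 ± 0.14 and Tfcp2l1 at -0.06 ± 0.30, none passed, and Pou5f1 and Sox2 were in neither fraction well above background.

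Among genes known as Kruppel-like factor targets 1 passed, beside 1.38% of all tested genes as higher and 0.262% as lower. The target lists held 12, 15, 6 and 7 tested genes, some of them shared. At that share lists this short hold few calls, so none or 1 passing is not read as a result about a list. Fgfbp1, a Klf5 target that carries fibroblast growth factors out of the matrix, rose in CD133-positive cells, by 1.57 on array 1 and 1.43 on array 2 (SE of the mean 0.14; limma adjusted p = 0.042). It no longer passed with no filter on dim probes (limma adjusted p = 0.095) or without moderation (limma adjusted p = 0.50). It was the only one of 15 tested Klf5 and Klf6 targets to pass, and the list's median was -0.34. Col1a1 at -1.25 ± 0.18 and the cyclin gene Ccnd1 at -0.95 ± 0.19 did not pass, and a second Col1a1 probe was at -0.21.

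Of 16 listed Klf2 and Klf4 targets 12 were tested and none passed (median -0.20). The Klf2 targets S1pr1 and Thbd were in neither fraction well above background. The cell cycle inhibitor Cdkn1a, induced by Klf4 and Klf6, was at 0.81 on array 1 and -1.32 on array 2, so the arrays disagreed in sign. Genes that Klf4 represses lay on either side of 0, with Ccnd1 at -0.95 ± 0.19, Ccnb1 at -0.73 ± 0.18, Odc1 at 0.69 ± 0.24 and Ccne1 at 0.63 ± 0.17.

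None of 6 Klf10 and Klf3 targets passed (median -0.73). Smad7, an inhibitor of TGF-beta signalling that Klf10 represses, was at -1.03 ± 0.20 and the galectin gene Lgals3, repressed by Klf3, at -1.68 ± 0.29, with limma adjusted p-values of 0.086 and 0.081. None of 7 Klf15 targets passed (median 0.19), and they spread widely, from Gpt2 at 1.04 ± 0.15 to the alanine aminotransferase gene Gpt at -1.25 ± 0.38. None of 6 tested glucocorticoid-induced genes, a class to which Klf9 and Klf15 belong in other cells, passed (median -0.18). Dusp1 was at -0.51 on array 1 and -2.25 on array 2, and Fkbp5 at -0.48 ± 0.18.

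Since Klf2 is an endothelial factor, markers of endothelial cells are given beside the higher signal of its dimmer probe. Of 8 endothelial markers 3 were tested. Vwf, a clotting factor carrier, rose by 3.75 ± 0.15 in CD133-positive cells (limma adjusted p = 0.012), with 2.71 by its other probe. Vwf no longer passed with no filter on dim probes (limma adjusted p = 0.053) or without moderation (limma adjusted p = 0.49). The endothelial cadherin gene Cdh5 also rose, and since it was not well above background in the CD133-negative fraction it was at least 5.81-fold higher by its brighter probe (limma adjusted p = 0.043) and at least 2.34-fold higher by the other. Cdh5 no longer passed with its dimmer probe (limma adjusted p = 0.092), the mean of its probes, no filter or no moderation. With the filter for both channels Cdh5 was not tested. It entered the test only through its CD133-positive signal, so the filter favoured a higher ratio and the p-value is not separate support. The adhesion gene Esam was at -1.07 ± 0.22 (limma adjusted p = 0.090). The defining markers Pecam1, Kdr, Tek, Tie1 and Emcn were in neither fraction well above background. The summed normalised intensity of the 3 tested genes was 1836 and 2564 in CD133-positive cells, against 386.5 and 449.5 in CD133-negative cells. Their part in the Klf2 result was not tested.

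Of 8 blood markers 4 were tested and none passed, and Ptprc and Itgam were in neither fraction well above background. The summed normalised intensity of the 4 was 385 and 352 in CD133-positive cells, against 333 and 335 in CD133-negative cells. Of 8 fibroblast markers 2 were tested, Acta2 and Col1a1, and none passed, while Pdgfra, Pdgfrb, Thy1, Dcn and Lum were in neither fraction well above background. The summed normalised intensity of Acta2 and Col1a1 was 8349 and 9014 in CD133-positive cells, against 7630 and 8531 in CD133-negative cells, although the genes had opposite signs, Acta2 at 0.13 ± 0.14 and Col1a1 at -1.25 ± 0.18. Of 8 epithelial markers 6 were tested. Epcam and Cldn4 were not among them, and they reached well above background only in CD133-negative cells. None of the 6 passed, with 3 above 0 and 3 below 0 on both arrays and a median of -0.08. The transcription factor gene Elf3 was at 1.03 ± 0.14 (limma adjusted p = 0.067), the cadherin gene Cdh1 at 0.42 ± 0.21 and the claudin gene Cldn7 at 0.38 ± 0.15. Cldn7 entered the test only through its CD133-positive signal, so the filter favoured a higher ratio. The keratin genes Krt8, Krt18 and Krt19 were at -0.78 ± 0.14, -0.54 ± 0.15 and -0.79 ± 0.15, and a second Krt8 probe was at -0.25. Of 6 tested gastric genes Gkn2 and Tff1 rose in CD133-positive cells, Gkn2 by 5.72 and 5.47 and Tff1 by 4.50 and 4.29 on the arrays (limma adjusted p = 0.0097 for each).

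**Figure D4:**
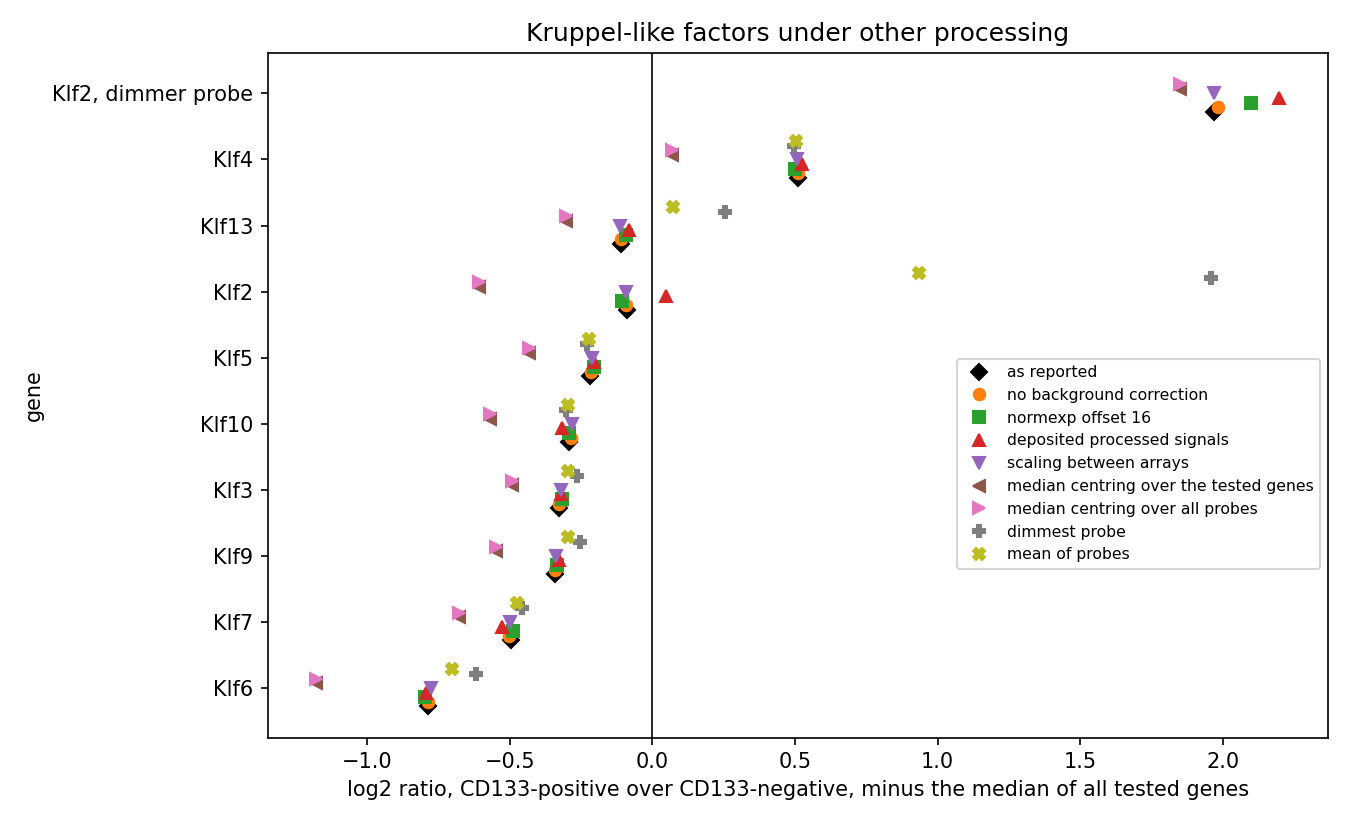
Log2 ratio of CD133-positive over CD133-negative cells minus the median of all tested genes, for each tested Kruppel-like factor gene and the dimmer Klf2 probe, under the reported processing (black diamonds) and 8 alternatives. The dimmer Klf2 probe stays between 1.85 and 2.20 and Klf6 at or below -0.62, while Klf2 as a gene lies between -0.61 with median centring and 1.96 with the dimmest probe, and Klf13 changes side with the dimmest probe and the mean of probes.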

How the data were processed

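Two-colour Agilent arrays were hybridised with RNA of CD133-positive (Cy3) and CD133-negative (Cy5) GIF-5 cells, 2 arrays in all. The deposited files give spot and local background brightness as intensity, unnormalised, and processed signals, also an intensity, background-subtracted, detrended and dye-normalised, per the file headers, which name the software Feature Extraction, release 9.5.3.1. Its log10 ratio column, as deposited, sets Cy5 over Cy3 processed signals. The value table equals that column within 1e-06 on all 45018 rows of each array, with a median of 0.

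Spots were background-corrected (normexp, offset 50), normalised by loess within each array with control spots at weight 0, and turned to log2 of CD133-positive over CD133-negative. Spots with outlier flags were left out and spots of a probe averaged. Levels per fraction came from the loess values after quantile normalisation of average intensities between arrays. Of 41174 probes, 22951 were named by accession and 9768 by symbol or synonym (RefSeq, GRCm38.p6, for names), and 8455 kept the file's name. Tests used limma 3.58.1 in R 4.3.3, with 1 residual and 2.86 prior degrees of freedom. They were tried on simulated log2 changes of 2, 4 and 6, with spreads drawn from the fitted prior. The tested Kruppel-like factor genes lay between -0.82 and 0.48, so the simulation does not give the power for changes of their size. The number of arrays limits the precision. A probe below background in 1 fraction has only a bound: the mean of the bright fraction over, per array, the higher of the probe's own value and the lowest signal among probes well above background.

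The members, lists and tests were chosen with earlier results of these data known. All members were described; of other lists, genes that passed and up to 4 with the largest ratios of 1 direction on both arrays were eligible to be named, and others stand where a contrast or a missing signal needed them, chosen after their values were seen. Alternatives covered background, signal, normalisation, filter, probe choice, variance model and each array left out. Each array held both fractions, so the ratio is paired within the array.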

Additional observations from a re-analysis of the deposited data

How the results depend on the processing

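The number of members that passed, 0 as reported, was also 0 with uncorrected background, at an offset of 16, with the processed signals, with scaling between arrays, with the filter for both channels, with no filter, with the mean of probes, with the intensity trend and without moderation. It was 1 (Klf2) with the dimmest probe and also 1 (Klf2) with all tested probes as separate features, an alternative added after seeing the data, 3 (Klf2, Klf6 and Klf7, all lower) with median centring over the tested genes, and 9, all lower, with median centring over all probes, where the median of all genes was -0.74. Over these alternatives the number of all genes that passed, 251 as reported, was 404 with uncorrected background, 548 at an offset of 16, 486 with processed signals, 10107 and 4013 with median centring over all probes and over tested genes, 629 with scaling between arrays, 29 with no filter, 156 with the dimmest probe, 820 with the intensity trend and 0 without moderation (1507 at an unadjusted p under 0.05). The share of them that were higher, 211 of 251 as reported, was 70.5% with uncorrected background, 72.6% at an offset of 16, 60.8% and 4.79% with median centring over tested genes and over all probes, and 58.8% with scaling between arrays.

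The median ratio of the members, -0.32, was -1.29 and -0.56 with median centring over all probes and over tested genes, and ran from -0.46 to -0.15 with either array left out. Relative to all genes it ran from -0.55 to -0.13 over the 14 alternatives. The ratio of Klf2 changed sign to 0.032 with processed signals, 1.94 with the dimmest probe and 0.91 with the mean of probes, that of Klf13 to 0.24 with the dimmest probe and 0.047 with the mean of probes, and that of Klf4 to -0.68 with median centring over all probes. The dimmer Klf2 probe was followed through 8 alternatives chosen after seeing the data and lay between 1.11 and 2.18. It passed in all but that with no filter on dim probes (limma adjusted p = 0.059), in which more probes were tested. Its limma adjusted p otherwise ran from 0.0069 to 0.034. The fit over all probes was not run with the intensity trend or without moderation, so whether this probe passes there was not tested. In the gene fit without moderation 0 of all genes passed. Of the other named genes that passed, Fgfbp1, Vwf and Cdh5 no longer did with no filter, where more genes were tested, and these and Gkn2, Tff1 and Prom1 did not without moderation (limma adjusted p from 0.45 to 0.52). Cdh5 and Prom1 were not tested with the filter for both channels. For the other changes the cause was not tested. No separate paired analysis was needed because each array holds both fractions and its ratio is already the paired value. Both arrays lay on 1 slide with 1 scan time, so no slide block could be fitted.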
